A study of Mus musculus with 8 samples.

Results

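The replication fork genes and the genes that supply its nucleotides were followed in mouse TTE3 cells over a day at 39 °C. The set held 36 genes, listed by name for the sliding clamp and its loader, the polymerases, helicase activation, single-strand binding, lagging strand maturation, nucleotide synthesis, mismatch recognition and histone mRNA binding. Of these, 34 had a probe set with a single gene symbol, 56 probe sets in all, out of 22626 on the array. The platform annotation used here lists no probe set for Gins2 or Rnaseh2a. Of the 34, 33 genes, with 50 probe sets, passed the filter on dim signal and were tested among 7707 genes. Tyms, the thymidylate synthase gene, did not pass: its 3 probe sets lay between 2.4 and 92.7 signal units on the 8 arrays.

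TTE3 is a testicular Sertoli cell line whose donor mice were transgenic for a temperature-sensitive SV40 large T-antigen, and all groups share that transgene. RNA was taken after 0, 6, 12 and 24 h at 39 °C, the temperature at which the T-antigen does not work, with 2 samples per time, labelled replicates 1 and 2. The labels give no promoter for the transgene, no culture temperature before 0 h and no statement that the 2 samples of a time were separate cultures. P-values therefore measure only the spread between these samples. Later samples differ from 0 h in temperature, in time and in T-antigen state together, and these cannot be told apart.

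At a replication fork the helicase opens the DNA, primase and polymerase alpha lay down primers, and polymerases delta and epsilon extend them while held to the template by the ring-shaped clamp PCNA. Replication protein A coats the exposed single strand, and the flap nuclease and the ligase join the fragments of the lagging strand. Ribonucleotide reductase, thymidylate synthase, thymidine kinase and dUTPase supply or protect the nucleotide pool. Many of these genes are textbook targets of E2F transcription factors, which the retinoblastoma proteins restrain, and large T-antigen is known to bind those proteins as well as p53.

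Values were on the scale the authors deposited, linear intensities with equal trimmed means on all arrays, so a change in total mRNA per cell is not visible. In such bulk samples, fewer cells in S phase and less RNA per cell cannot be told apart. Array medians ran from 138.5 to 154.7 units, the 2 arrays of a time correlated across probe sets with r between 0.9788 and 0.9858 on the log2 scale, and the control probe sets gave ratios of 3' to 5' signal from 1.03 to 1.13 (actin) and from 0.717 to 0.805 (Gapdh). Of 13 Sertoli markers on the array, 5 had a mean above the median of all signals, among them Clu and Gata4, while Amh, Dmrt1, Cldn11 and Gdnf had means below 21.9 units. Means below that level were found for 2 of 6 germ cell markers (Dazl and Sycp3), 3 of 4 Leydig cell markers (Cyp17a1, Cyp11a1 and Hsd3b1), 2 of 5 peritubular myoid markers (Myh11 and Cnn1), 1 of 5 macrophage markers (Ptprc) and 0 of 4 endothelial markers. The highest means on those lists were those of Kit at 574.5 units, Star at 149, Acta2 at 201, Cd68 at 215 and Kdr at 71.8. The summed signal of the Sertoli list was 3884 to 4072 units at 0 h and 6295 to 6920 at 24 h, of which Clu gave 1395 and 1337 at 0 h and 4205 and 3323 at 24 h. That of the germ cell list was 421.5 to 500.1 at 0 h and 1367 to 1387 at 24 h, where Kit gave 1225 and 1222. The Leydig list summed to 96.8 to 157.9 units at 0 h and 248 to 326.1 at 24 h, where Star gave 229.9 and 287. The macrophage list summed to 513.9 to 596 units at 0 h and 601.1 to 620 at 24 h, the myoid list to 282.7 to 347.3 and 270.6 to 358.8, and the endothelial list to 146.1 to 148.4 and 181.3 to 213.2. The part of these shifts in the results below was not tested.

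Promoter sequences of the members were taken from RefSeq (GRCm38.p6), where 30 of 36 members were listed, some with several starts. Pole, Tipin, Rfc2, Prim2, Gins1 and Gins2 were not listed and are in none of the promoter counts. The 4 shown are those of the clamp gene Pcna and of the listed members with the largest called changes against 0 h by their brightest probe set, Msh6, Cdc45 and Rpa3, each as the 250 bases before the transcription start, 5′ to 3′ on the gene's strand, with CCAAT in either orientation in capitals.
Pcna, chr2:132253181-132253430, minus strand: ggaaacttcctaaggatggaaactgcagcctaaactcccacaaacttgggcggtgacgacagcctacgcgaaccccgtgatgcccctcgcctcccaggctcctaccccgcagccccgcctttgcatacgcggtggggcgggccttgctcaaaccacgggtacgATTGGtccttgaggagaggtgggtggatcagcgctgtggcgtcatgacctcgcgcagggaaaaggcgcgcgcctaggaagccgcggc
Msh6, chr17:87974800-87975049, plus strand: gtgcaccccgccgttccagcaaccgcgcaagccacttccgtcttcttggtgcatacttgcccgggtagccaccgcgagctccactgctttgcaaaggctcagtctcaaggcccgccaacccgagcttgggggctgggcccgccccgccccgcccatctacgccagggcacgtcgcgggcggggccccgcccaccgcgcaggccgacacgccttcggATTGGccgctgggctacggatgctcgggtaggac
Cdc45, chr16:18811973-18812222, minus strand: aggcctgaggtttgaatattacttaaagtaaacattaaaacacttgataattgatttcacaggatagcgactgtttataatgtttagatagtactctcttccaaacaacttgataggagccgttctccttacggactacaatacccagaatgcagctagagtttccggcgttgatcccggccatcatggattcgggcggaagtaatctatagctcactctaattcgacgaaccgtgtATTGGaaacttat
Rpa3, chr6:8259142-8259391, minus strand: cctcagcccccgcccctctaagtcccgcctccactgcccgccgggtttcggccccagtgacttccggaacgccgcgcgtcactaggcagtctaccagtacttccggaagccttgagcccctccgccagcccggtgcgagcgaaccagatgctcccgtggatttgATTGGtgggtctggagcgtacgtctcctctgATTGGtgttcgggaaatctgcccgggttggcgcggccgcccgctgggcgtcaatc
All 4 held the CCAAT pentamer, 2 times in Rpa3 and 1 time in each of the others. It lay 13 to 9 bases before the start in Cdc45, 34 to 30 in Msh6 and 87 to 83 in Pcna. GC content was 40.4% in Cdc45 and between 64.0% and 70.8% in the other 3.

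Over all members with a promoter, 15 of 30 (50%) held CCAAT, on either strand, against 41.1% of tested genes and 37.5% of all genes in the table. An E2F motif, searched on both strands as TTTCCCGC, TTTCGCGC, TTTGCCGC or TTTGGCGC, was in 2 of 30 (6.67%), against 4.43% of tested genes and 2.16% of all genes. These were Pola1, with GCGCCAAA from 138 to 131 bases before the start, and Rfc3, with TTTCGCGC from 10 to 3 bases before it. TTTGAA, the core of the element found in many late cell cycle promoters, was in 4 of 30 (13.3%), against 12.2% and 18.3%. No form of one motif contains another. Among 14 tested members with CCAAT the median log2 change from 0 h was 0.27 at 6 h, 0.45 at 12 h and 0.42 at 24 h, and among 14 without it 0.04, 0.15 and 0.20. From 6 to 12 h the medians were 0.25 and 0.23. Pole and Tipin, the only members called lower at 12 h, are in neither group. At 12 h the median was 0.50 for the 2 members with the E2F motif and 0.35 for 26 without it, and 0.44 for the 4 with TTTGAA and 0.35 for 24 without it. A gene counted as holding a motif if the 250 bases before any of its listed starts did. These are descriptions of letters, with no test.

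Over the 24 h, most of these genes moved, and more rose than fell. Tested for any change among the times with limma's moderated F-test, 23 of 33 passed at adjusted p below 0.05, where 42% of all tested genes did. Among the 23, the highest level was at 12 h for 10, at 24 h for 6, at 0 h for 4 and at 6 h for 3. Times of highest level were not counted over all tested genes. Fewer members passed the F-test without any one of the 0 h, 12 h or 24 h arrays, and more without either 6 h array. All tested genes that passed it were not counted in these settings. A gene is represented by its brightest tested probe set, changes are on the scale log2(signal + 21.9), and "called" means adjusted p below 0.05 over all tested probe sets. The comparisons with 0 h share the same 2 arrays and are given side by side.

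At 6 h the set was split, with 6 genes higher and 6 lower. The background was 9.15% of tested genes higher and 9.33% lower, against 18.2% of the members in each direction, and the median log2 change was 0.13 (all tested genes 0.01). The 6 higher were Msh6, Cdc45, Pold3, Rpa3, Cdc7 and Slbp. Lower were Pole, Tk1, Tipin, Lig1, Rfc5 and Dbf4. Both counts were smaller when either 0 h array was left out, as were those over all tested probe sets. Counting a gene by any tested probe set, 9 were higher and 7 lower. This rule gives genes with several probe sets more chances of a call. The background shares above are by the brightest probe set only, and all tested genes were not counted by any probe set.

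At 12 h the rises outnumbered the falls. Higher were 17 of 33 genes (51.5%) against a background of 13.3%, and 2 were lower (6.06%) against 12%. The median log2 change was 0.34, where that of all tested genes was 0.02. With each array centred on its median signal 11 were higher, and over all tested probe sets the higher share of calls went from 50.5% to 40.4%. Fewer members were higher when either 0 h array or 12 h replicate 2 was left out, and so were fewer of all tested probe sets.

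After 24 h, 14 genes were higher (42.4%, background 18.6%) and 3 lower (9.09%, background 16.6%), where 35.2% of all tested genes were called in either direction, with a median log2 change of 0.23. With each array centred on its median signal 5 were lower, and over all tested probe sets the higher share of calls went from 52% to 37.5%. Fewer members were higher when either 0 h array or 24 h replicate 1 was left out. Fewer were lower without 0 h replicate 2 or 24 h replicate 2, and more when either 6 h array was dropped. Calls over all tested probe sets moved the same way in each of these settings.

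Of all tested genes 18.5%, 25.2% and 35.2% were called in either direction at 6, 12 and 24 h against 0 h. Their share called at any of these times was not counted. Counted by gene, 25 of 33 members were called at some time against 0 h, in 48 calls. Of these calls 22 held under all 18 alternative settings, 8 of which leave out 1 array each. They belong to Msh6 and Pole at all 3 times, Pcna, Pola1, Pole2 and Rpa3 at 12 and 24 h, Cdc45, Rfc2, Rpa1, Rpa2 and Fen1 at 12 h, Slbp at 24 h, and Tipin and Tk1 at 6 h. For other calls the arrays whose omission ended them are named beside the value. Of the 48 calls, 33 held under all 10 alternatives that leave out no array. Median centring of the arrays ended the calls of Cdc7 and Slbp at 6 and 12 h and of Rfc3 and Pold3 at 12 and 24 h. It also ended those of Pola2 and Pold1 at 12 h and of Timeless and Fen1 at 24 h. Other processing settings that ended a call against 0 h are not named beside the value. The remaining 8 genes, Rfc1, Rfc4, Prim1, Prim2, Gins1, Wdhd1, Rrm1 and Dut, were not called at any time against 0 h.

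**Figure D1:**
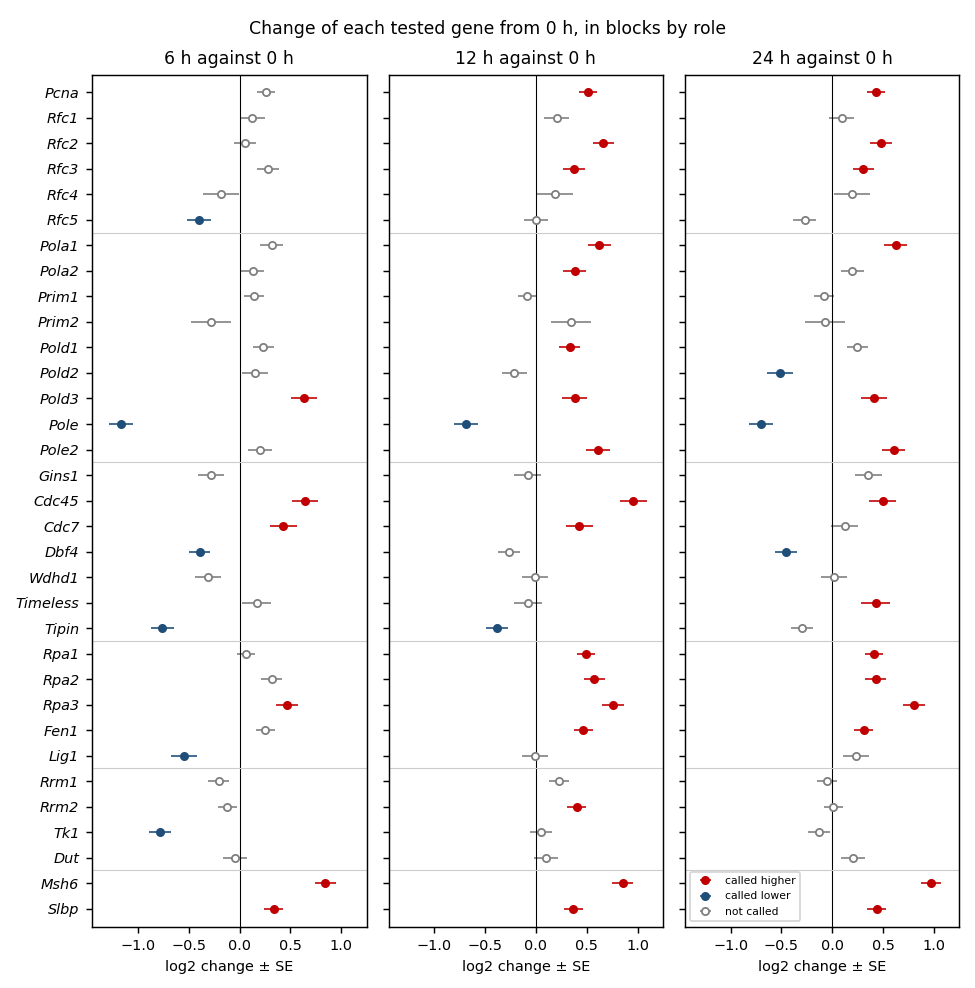
Log2 change from 0 h (x axis, ± SE of the fit) of each tested gene (y axis, in blocks by role) at 6, 12 and 24 h; filled points passed adjusted p below 0.05. At 6 h called points lie on both sides of 0, and at 12 h 17 of 19 called points lie to the right of 0.

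Pcna, the clamp that tethers polymerases to DNA, was among the brightest members. Its signal was 9786 and 9585 at 0 h, 11916 and 11283 at 6 h, 13476 and 14162 at 12 h, and 13309 and 12764 at 24 h. Both 0 h arrays were below all later arrays. The log2 change was 0.26 ± 0.09 at 6 h (adjusted p = 0.061), 0.51 ± 0.09 at 12 h (adjusted p = 0.00175) and 0.43 ± 0.09 at 24 h (adjusted p = 0.00321).

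Replication factor C loads the clamp, and its subunit genes did not move as one. Rfc2 read 1617 and 1583 at 0 h, 1816 and 1517 at 6 h, 2494 and 2601 at 12 h, and 2315 and 2171 at 24 h. The 6 h arrays overlapped those of 0 h, and all 4 later arrays were above them. Rfc2 changed by 0.66 ± 0.11 at 12 h (adjusted p = 0.00123) and 0.48 ± 0.11 at 24 h (adjusted p = 0.00515, but 0.0515 without 24 h replicate 1), and rose by 0.61 ± 0.11 from 6 to 12 h (adjusted p = 0.00738, but 0.0536 without 12 h replicate 2 and 0.0541 with only those times in the fit).

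Rfc3 was higher at 12 h (0.37 ± 0.11, adjusted p = 0.0256) and at 24 h (0.31 ± 0.11, adjusted p = 0.0465). Its signal was 968 and 1022 at 0 h, 1204 and 1395 at 12 h, and 1263 and 1206 at 24 h, with no overlap. The 12 h call ended without either 0 h array and without 12 h replicate 2 (adjusted p up to 0.169), and the 24 h call without any one of the 0 h and 24 h arrays (adjusted p up to 0.226). A dimmer Rfc3 probe set was called higher at 12 h (0.41 ± 0.13) but not at 24 h (0.20 ± 0.13). Rfc5, which encodes another loader subunit, was lower at 6 h (-0.40 ± 0.12, adjusted p = 0.0363), from 1888 and 1807 to 1253 and 1559. At 12 h it was back at 1833 and 1856. That 6 h call ended without either 0 h array, without 6 h replicate 1 and without either 24 h array, with adjusted p up to 0.201. Rfc4 showed no called change, and its 6 h arrays differed widely, at 1015 and 1684 units.

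The polymerase genes gave both the set's deepest fall and several of its steady rises. Pole, the catalytic subunit of polymerase epsilon, which copies the leading strand, read 1513 and 1399 at 0 h, 606 and 672 at 6 h, 815 and 979.7 at 12 h, and 898 and 872 at 24 h. No later array reached either 0 h array. Its log2 change was -1.16 ± 0.12 at 6 h (adjusted p = 0.000117), a fall to 2.24-fold below 0 h, then -0.69 ± 0.12 at 12 h (adjusted p = 0.00183) and -0.70 ± 0.12 at 24 h (adjusted p = 0.00101). Pole rose from 6 to 12 h by 0.47 ± 0.12 (adjusted p = 0.0342), a call that ended under 9 of 18 alternatives, among them without 12 h replicate 2 (adjusted p = 0.194) and without 6 h replicate 1 (adjusted p = 0.0926).

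Pole2, the second subunit of the same enzyme, went the other way. It read 591 and 629 at 0 h, 652 and 762 at 6 h, 993 and 891 at 12 h, and 918 and 958 at 24 h, with all later arrays above those of 0 h. The change was 0.61 ± 0.12 at 12 h (adjusted p = 0.00351) and 0.60 ± 0.12 at 24 h (adjusted p = 0.00243).

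Pola1, the catalytic subunit of the priming polymerase alpha, read 535 and 488 at 0 h, 626 and 659 at 6 h, 777 and 819 at 12 h, and 844 and 759 at 24 h. The groups at 12 and 24 h lay above both earlier ones. Its log2 change was 0.62 ± 0.11 at 12 h (adjusted p = 0.00252) and 0.63 ± 0.11 at 24 h (adjusted p = 0.00156). Its partner Pola2 was higher at 12 h alone among the 3 times (0.38 ± 0.12, adjusted p = 0.0338), and that call ended with any 0 h, 12 h or 24 h array left out, with adjusted p up to 0.195.

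The primase genes Prim1 and Prim2 were not called. Prim1, the catalytic primase subunit, was between 2938 and 3768 units on all arrays by its brightest probe set. A second Prim1 probe set ran from 1551 to 3333, with 1692 and 3333 at 12 h. Prim2 ranged from 364 to 709.7, with the lowest value on 6 h replicate 2 and the highest on 12 h replicate 2. Its second probe set was highest at 24 h, at 454 and 467 units, and was not called either.

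Polymerase delta, the lagging strand enzyme, had subunit genes on both sides. Pold3, an accessory subunit, read 311 and 297 at 0 h, 479 and 490 at 6 h, 397 and 409 at 12 h, and 442 and 382 at 24 h. Its arrays at 6 h were the highest, and both 0 h arrays the lowest. The change was 0.64 ± 0.13 at 6 h (adjusted p = 0.00615, but 0.0574 without 0 h replicate 2), 0.38 ± 0.13 at 12 h (adjusted p = 0.0463) and 0.41 ± 0.13 at 24 h (adjusted p = 0.0272). The 12 h call ended without any one of the 0 h, 12 h and 24 h arrays, and the 24 h call without either 0 h array or 24 h replicate 1, both with adjusted p up to 0.203. A dimmer Pold3 probe set was called at none of these times. It was at -0.01 ± 0.16 at 6 h, 0.36 ± 0.16 at 12 h and -0.12 ± 0.16 at 24 h, below 0 at 6 and 24 h.

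Pold2, a second delta subunit, read 2373 and 2355 at 0 h, 3005 and 2300 at 6 h, 1965 and 2113 at 12 h, and 1742 and 1554 at 24 h. Both 24 h arrays were the lowest of the 8. It fell at 24 h by 0.52 ± 0.13 on the log2 scale (adjusted p = 0.0087), a call that ended without 0 h replicate 1 (adjusted p = 0.0601), 0 h replicate 2 (0.0535) or 24 h replicate 2 (0.0831). Pold1, the catalytic subunit, was at 0.33 ± 0.11 at 12 h (adjusted p = 0.0403), and lost its call without any one of the 0 h, 12 h or 24 h arrays. A dimmer Pold1 probe set was not called at 12 h (0.34 ± 0.16).

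Among genes that fire and guard the fork, Cdc45 rose most. CDC45 joins the MCM ring and the GINS complex to form the active helicase. Its signal was 464 and 571 at 0 h, 889.8 and 748 at 6 h, 1007 and 1037 at 12 h, and 760.2 and 709.8 at 24 h. All later arrays exceeded both 0 h arrays, and the 12 h arrays were the highest. The change was 0.96 ± 0.13 at 12 h (adjusted p = 0.000499), a fold of 1.94. It was 0.64 ± 0.13 at 6 h (adjusted p = 0.00714, but 0.0871 without 0 h replicate 1) and 0.49 ± 0.13 at 24 h (adjusted p = 0.0132, but 0.144 without 0 h replicate 1 and 0.0918 without 24 h replicate 1). The drop from 12 to 24 h was 0.46 ± 0.13 and did not pass (adjusted p = 0.0569).

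Gins1, a GINS subunit gene, was not called against 0 h and had its highest values at 24 h, 962 and 824, against 642 and 745 at 0 h (0.35 ± 0.13, adjusted p = 0.0562). Cdc7, the kinase that triggers origin firing, and Dbf4, the subunit that activates it, differed in sign. A dimmer Cdc7 probe set was not called (0.25 ± 0.18 at 6 h and 0.30 ± 0.18 at 12 h). By the brightest, Cdc7 was at 0.43 ± 0.13 at 6 h (adjusted p = 0.0449) and 0.42 ± 0.13 at 12 h (adjusted p = 0.0388). The 6 h call ended with any single array left out except 6 h replicate 1 (adjusted p up to 0.282), and the 12 h call without any one of the 0 h, 12 h and 24 h arrays (adjusted p up to 0.253).

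Dbf4 read 2289 and 2336 at 0 h, 1881 and 1644 at 6 h, 1834 and 2012 at 12 h, and 1761 and 1601 at 24 h. No later array reached the 0 h level. It was lower at 6 h (-0.39 ± 0.11, adjusted p = 0.0256, but up to 0.147 without either 0 h array or 6 h replicate 2). At 24 h it was at -0.46 ± 0.11 (adjusted p = 0.00659, but 0.054 without 0 h replicate 2 and 0.0709 without 24 h replicate 2).

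Tipin and Timeless encode partners in the fork protection complex. Tipin read 2411 and 2131 at 0 h, 1283 and 1379 at 6 h, 1847 and 1623 at 12 h, and 1745 and 1944 at 24 h. The 6 h arrays were the lowest and the 0 h arrays the highest, with no overlap. Its change was -0.76 ± 0.11 at 6 h (adjusted p = 0.00121) and -0.38 ± 0.11 at 12 h (adjusted p = 0.0279, but 0.222 and 0.059 when 0 h replicate 1 or 2 was left out and 0.168 when 12 h replicate 2 was). Timeless was higher at 24 h, at 1011 and 1063 against 816 and 719.6 (0.43 ± 0.14, adjusted p = 0.039). That call ended without any one of the 0 h and 24 h arrays (adjusted p up to 0.226), and 6 h replicate 2 was as high, at 1012. A second Timeless probe set was also called higher at 24 h (0.35 ± 0.11, adjusted p = 0.0302). Wdhd1, which ties polymerase alpha to the helicase, was not called at any time.

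All 3 subunit genes of replication protein A, the single-strand binding complex, were higher at 12 and 24 h. Rpa3 read 665 and 661 at 0 h, 928 and 917 at 6 h, 1237 and 1051 at 12 h, and 1163 and 1183 at 24 h. Each later array was above both 0 h arrays. The change was 0.46 ± 0.11 at 6 h (adjusted p = 0.0138, but 0.0897 and 0.0903 without 0 h replicate 1 and 2), 0.76 ± 0.11 at 12 h (adjusted p = 0.000634) and 0.80 ± 0.11 at 24 h (adjusted p = 0.000239).

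Rpa1, the large subunit, went from 8145 and 8639.9 at 0 h and 8749 and 8760 at 6 h to 11351 and 12290 at 12 h and 11416 and 10928 at 24 h. The first 2 times lay close together, and the last 2 clear above them. Its change was 0.49 ± 0.09 at 12 h (adjusted p = 0.00248) and 0.41 ± 0.09 at 24 h (adjusted p = 0.00457, but 0.0637 without 0 h replicate 1). From 6 to 12 h it was 0.43 ± 0.09 (adjusted p = 0.0165, but 0.11 without 12 h replicate 2, 0.111 with only those times in the fit, 0.0619 without a variance trend and 0.0529 without a filter).

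Rpa2, the subunit phosphorylated under replication stress, read 878 and 831 at 0 h, 1000.1 and 1143 at 6 h, 1277 and 1287 at 12 h, and 1140.4 and 1169 at 24 h, with all later arrays above those of 0 h. It changed by 0.57 ± 0.10 at 12 h (adjusted p = 0.00257) and 0.43 ± 0.10 at 24 h (adjusted p = 0.00904, but 0.0779 without 0 h replicate 2 and 0.0667 without 24 h replicate 2). For both Rpa1 and Rpa2 a second probe set was also called higher at 12 and 24 h, and that of Rpa2 at 6 h as well (0.43 ± 0.11, adjusted p = 0.0175).

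Fen1 and Lig1 finish lagging strand fragments, the first by cutting flaps and the second by sealing nicks. Fen1 read 2698 and 2695 at 0 h, 3058 and 3382 at 6 h, 3814 and 3649 at 12 h, and 3452 and 3242 at 24 h. All 6 later arrays lay above those of 0 h. It was higher by 0.47 ± 0.09 at 12 h (adjusted p = 0.0044) and by 0.31 ± 0.09 at 24 h (adjusted p = 0.0252, a call that ended without any one of the 0 h and 24 h arrays, up to 0.163). Its second probe set was called higher at 6 h (0.35 ± 0.10, adjusted p = 0.0337), 12 h (0.41 ± 0.10, adjusted p = 0.0124) and 24 h (0.39 ± 0.10, adjusted p = 0.0107).

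Lig1 read 1221 and 1241 at 0 h, 767 and 911 at 6 h, 1101 and 1362 at 12 h, and 1401 and 1499 at 24 h. The 6 h arrays were the lowest and the 24 h arrays the highest. The change was -0.55 ± 0.13 at 6 h (adjusted p = 0.013, but 0.082, 0.0889 and 0.057 without 0 h replicate 1, 0 h replicate 2 and 6 h replicate 1). From 6 to 12 h it rose by 0.54 ± 0.13 (adjusted p = 0.0265), a call that ended without 0 h replicate 1 or 2, 6 h replicate 1 or 12 h replicate 2 (adjusted p up to 0.162). At 24 h it was at 0.23 ± 0.13 (adjusted p = 0.187).

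Of the 4 tested nucleotide synthesis genes, Tk1 fell at 6 h, Rrm2 was higher at 12 h, and 3 rose from 6 to 12 h. Tk1, the cytosolic thymidine kinase of the salvage pathway, read 2731 and 2638 at 0 h, 1675 and 1431 at 6 h, 2906 and 2664 at 12 h, and 2578 and 2319 at 24 h. The 6 h arrays stood apart below all the others. The change was -0.79 ± 0.11 at 6 h (adjusted p = 0.000845), 1.72-fold lower, and the rise from 6 to 12 h was 0.84 ± 0.11 (adjusted p = 0.00167), which held under all 18 alternatives. At 24 h Tk1 was at -0.13 ± 0.11 (adjusted p = 0.381).

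Ribonucleotide reductase makes deoxyribonucleotides from a large and a small subunit. Rrm2, the small subunit, read 6512 and 6411 at 0 h, 5579 and 6339.9 at 6 h, 8342 and 8755 at 12 h, and 6745 and 6273 at 24 h. The other 2 Rrm2 probe sets were lowest at 24 h, and 1 of them read 5509 and 4808 at 6 h against 4711 and 4722 at 0 h. At 12 h that one was called higher (0.48 ± 0.09) and the remaining one was not called (0.28 ± 0.10). By the brightest probe set the 12 h arrays were above all others, and both 6 h arrays were below those of 0 h. The change was 0.40 ± 0.10 at 12 h (adjusted p = 0.0109, but 0.074, 0.0858 and 0.0704 without 0 h replicate 1, 0 h replicate 2 and 12 h replicate 2) and 0.01 ± 0.10 at 24 h (adjusted p = 0.952).

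Between 6 and 12 h Rrm2 rose by 0.52 ± 0.10 (adjusted p = 0.00957, but 0.0681 without 12 h replicate 2 and 0.0735 with only those times in the fit). Between 12 and 24 h it fell by 0.39 ± 0.10 (adjusted p = 0.0327). That fall ended under 9 of 18 alternatives, including the loss of any one 0 h, 12 h or 24 h array (adjusted p up to 0.243), but the other 2 Rrm2 probe sets were called lower too. Rrm1, the large subunit, was lowest at 6 h and highest at 12 h. It read 5775 and 6485 at 12 h against 4842 and 4229 at 6 h (0.43 ± 0.10, adjusted p = 0.0259). The call ended without 12 h replicate 2, where the change was 0.35, and when either 0 h array was left out. That call also ended with only those times in the fit (adjusted p = 0.127), without a variance trend (0.0805) and with no filter (0.0568). A second Rrm1 probe set was not called (0.19 ± 0.09, adjusted p = 0.19). Rrm1 was not called against 0 h at any time.

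Msh6, a mismatch recognition gene, was higher at all 3 later times. It read 1136 and 1027 at 0 h, 1828 and 2090 at 6 h, 1932 and 2005 at 12 h, and 2143 and 2133 at 24 h. The 0 h arrays were far below all the rest. The log2 change was 0.84 ± 0.10 at 6 h (adjusted p = 0.000415), 0.85 ± 0.10 at 12 h (adjusted p = 0.000242) and 0.97 ± 0.10 at 24 h (adjusted p = 4.79e-05), which is 1.96-fold.

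Slbp binds the stem-loop of replication-dependent histone mRNAs. It read 2631 and 2485 at 0 h, 3256 and 3215 at 6 h, 3428 and 3189 at 12 h, and 3604 and 3345 at 24 h, with all later arrays above those of 0 h. Its rises were small and of one direction, 0.34 ± 0.09 at 6 h (adjusted p = 0.0275), 0.37 ± 0.09 at 12 h (adjusted p = 0.0144) and 0.44 ± 0.09 at 24 h (adjusted p = 0.00395). Only the last held under all alternatives. Without either 0 h array the first 2 ended (adjusted p up to 0.186 and 0.124), as they did without 6 h replicate 1 and 12 h replicate 1.

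**Figure D2:**
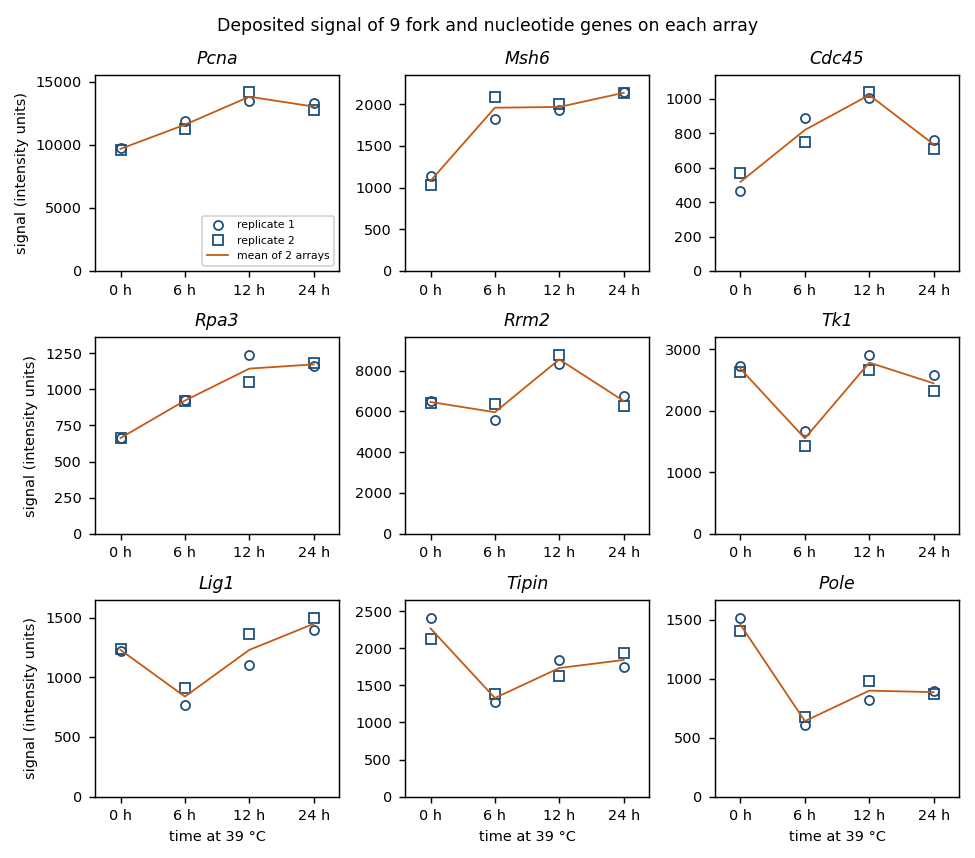
Deposited signal (y axis, linear intensity units from 0) of 9 genes at 4 times (x axis, evenly spaced); circles and squares are the arrays of replicates 1 and 2 and the line joins their means. Tk1, Lig1, Tipin and Pole are lowest at 6 h, and Msh6 and Rpa3 stay above 0 h at all later times.

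For Rfc1 and Dut a dimmer probe set was called at all 3 later times and the brightest at none. The brightest Rfc1 probe set, for the large subunit of the clamp loader, was at 0.12 ± 0.12 at 6 h (adjusted p = 0.53). A second one was called lower at all 3 times, with 1410 and 1249 at 0 h, 1056 and 902 at 6 h, 1016 and 1012 at 12 h and 996 and 953 at 24 h (-0.43 ± 0.11 at 6 h, adjusted p = 0.0216). The third was not called. For Dut, the dUTPase gene that keeps uracil out of DNA, the brightest probe set was not called, at 884 and 868 at 0 h and 1025 and 998 at 24 h. The dimmer one was called higher at all 3 times, with 101 and 100.3 units at 0 h, 242 and 222 at 6 h, 241 and 207 at 12 h and 261 and 299 at 24 h (1.30 ± 0.16, adjusted p = 0.000142). Which transcripts each probe set detects was not tested.

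**Figure D3:**
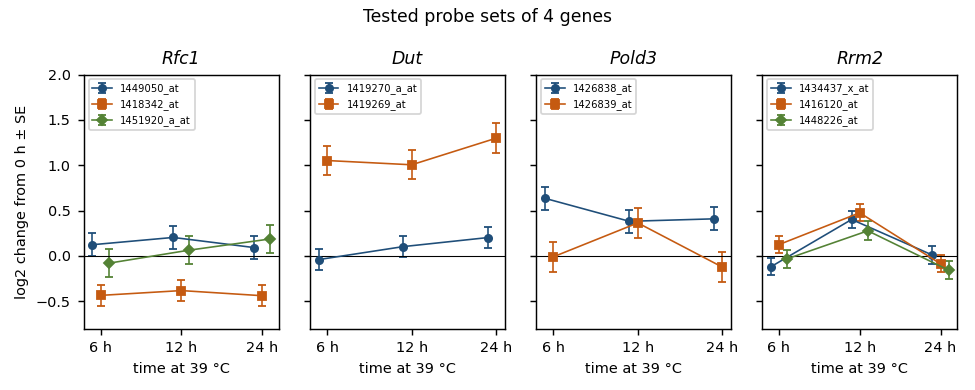
Log2 change from 0 h (y axis, ± SE of the fit) at 6, 12 and 24 h (x axis) for each tested probe set of Rfc1, Dut, Pold3 and Rrm2. One Rfc1 probe set stays below 0 and one Dut probe set above 1 at all 3 times, and the 3 Rrm2 probe sets are all highest at 12 h.

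From 6 to 12 h, 7 of 33 genes rose (21.2%) against a background of 4.93% higher and 8.51% in either direction, namely Rfc2, Pole, Rpa1, Lig1, Rrm1, Rrm2 and Tk1. In the limma fit 0 fell, against a background of 3.58%, with 2 lower at unadjusted p below 0.05. Fewer members rose when either 0 h array or 12 h replicate 2 was left out, and so did fewer of all tested probe sets. A fall was called when either 6 h array was left out. From 12 to 24 h, where 7.36% of all tested genes were called in either direction, 1 gene, Rrm2, was lower (3.03%, background 3.27%) and 0 were higher in the limma fit (background 4.09%), with 6 lower and 2 higher at unadjusted p below 0.05. More members were called, in both directions, when either 6 h array was left out, and fewer without any other single array. Calls over all tested probe sets moved the same way.

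Other genes of the replication pathway were counted from lists written by function. Of 16 licensing genes, which load the helicase onto origins, 3 rose and 1 fell at 6 h, 6 rose and 1 fell at 12 h, and 8 rose and 1 fell at 24 h. The shares that rose were 18.8%, 37.5% and 50%, and the share that fell was 6.25% each time, where among all tested genes 9.15%, 13.3% and 18.6% rose and 9.33%, 12% and 16.6% fell. The licensing factor Cdc6 was at 0.89 ± 0.13 at 24 h (adjusted p = 0.000448), Mcm5 at 0.69 ± 0.10 at 12 h (adjusted p = 0.000735), and Mcm6 at 0.67 ± 0.09 at 24 h (adjusted p = 0.000274), while the origin recognition gene Orc2 was at -0.94 ± 0.14 at 24 h (adjusted p = 0.000492). Of 23 further fork and chromatin assembly genes, 3 rose and 2 fell at 6 h, 5 rose and 0 fell at 12 h, with 0 lower at unadjusted p below 0.05, and 2 rose and 1 fell at 24 h. These are 13%, 21.7% and 8.7% higher and 8.7%, 0% and 4.35% lower, so that at 24 h the higher share was under that of all tested genes (18.6%). Chaf1b, a histone chaperone subunit gene, was lower at 6 h (-0.67 ± 0.11, adjusted p = 0.00197) and rose from 6 to 12 h (0.54 ± 0.11, adjusted p = 0.0129). Donson, a replisome gene, was at -0.67 ± 0.14 at 6 h (adjusted p = 0.00919). The helicase gene Recql4 was at 0.64 ± 0.19 at that time (adjusted p = 0.0376), and the mismatch repair gene Msh3 at 0.82 ± 0.18 at 24 h (adjusted p = 0.00556).

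Of 25 nucleotide synthesis genes outside the set, 2 rose and 0 fell at 6 h (4 lower at unadjusted p below 0.05), 3 rose and 5 fell at 12 h, and 4 rose and 9 fell at 24 h. The shares that rose, 8%, 12% and 16%, were under those of all tested genes (9.15%, 13.3% and 18.6%), and those that fell were 0%, 20% and 36%, against 9.33%, 12% and 16.6%. At 24 h the purine salvage gene Aprt was at -1.06 ± 0.10 (adjusted p = 2.06e-05), the pyrimidine synthesis gene Dhodh at -0.99 ± 0.18 (adjusted p = 0.00185) and the mitochondrial serine hydroxymethyltransferase gene Shmt2 at -0.98 ± 0.10 (adjusted p = 5.1e-05). Prps2, which makes the ribose phosphate donor, was at 1.24 ± 0.11 (adjusted p = 1.55e-05).

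Among 18 genes of S phase control, 1 rose at 6 h, 4 at 12 h and 4 at 24 h, and 1 fell at 24 h. The shares that rose were 5.56%, 22.2% and 22.2%, against 9.15%, 13.3% and 18.6% of all tested genes. Cdkn1a, the gene for the CDK inhibitor p21, whose protein also binds PCNA, read 912 and 808 at 0 h and 8582 and 8342 at 24 h, a rise of 9.63-fold (3.27 ± 0.09, adjusted p = 3.21e-09). Rb1, the retinoblastoma gene, went from 107 and 89.8 to 419.5 and 469 units (1.95 ± 0.20, adjusted p = 3.29e-05), and Ccne2, the cyclin E2 gene, was at 0.90 ± 0.24 (adjusted p = 0.0129). E2f8 was at 0.45 ± 0.15 at 12 h (adjusted p = 0.0459), and E2f1 was at 0.06 ± 0.16 (adjusted p = 0.812).

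Mitosis genes were listed for comparison. Of 22 in the limma fit, 0 were higher and 13 lower at 24 h against 0 h, and 0 were higher and 13 lower at 24 h against 12 h, with 0 higher at unadjusted p below 0.05 in both. Lower were thus 59.1% in each comparison, where 16.6% and 3.27% of all tested genes were. At 6 h against 0 h 0 were higher and 3 lower (13.6%), with 1 higher at unadjusted p below 0.05. Of all tested genes 9.15% were higher and 9.33% lower at that time. At 12 h against 0 h 2 were higher (9.09%) and 1 lower (4.55%), where 13.3% and 12% of all tested genes were. From 6 to 12 h 4 were higher (18.2%) and 0 lower, with 0 lower at unadjusted p below 0.05. Higher in that step were 21.2% of the fork and nucleotide genes and 4.93% of all tested genes, and 3.58% of all were lower. Of the 22 mitosis genes 17 passed the F-test, where 42% of all tested genes did. Among the 17, 10 were highest at 12 h, a share not counted over all tested genes. Over the 24 h and the step from 12 to 24 h the fork and nucleotide genes had 14 higher and 3 lower, and 0 higher and 1 lower. At 24 h Foxm1, a transcription factor gene of late cell cycle genes, was at -0.90 ± 0.14 (adjusted p = 0.000668), the mitotic kinase gene Plk1 at -0.82 ± 0.15 (adjusted p = 0.00139), the cytokinesis motor gene Kif23 at -0.96 ± 0.20 (adjusted p = 0.00338) and the proliferation marker Mki67 at -0.35 ± 0.12 (adjusted p = 0.0386). Cdc25c, a phosphatase gene that opens mitosis, was at -1.22 ± 0.24 at 6 h (adjusted p = 0.00584). The difference between the lists was not tested.

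**Figure D4:**
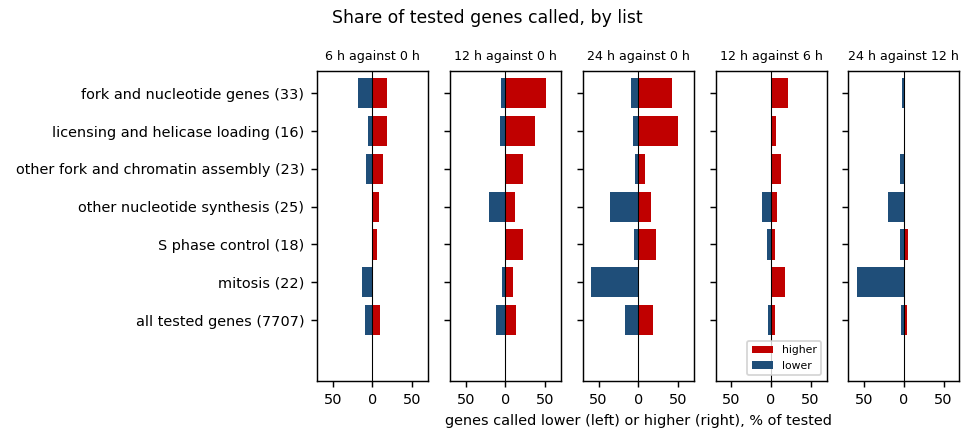
Share of tested genes called lower (left of 0, blue) and higher (right of 0, red), in percent, for the fork and nucleotide genes, 5 other lists and all tested genes (y axis, number tested in brackets) in 5 comparisons. At 24 h against 12 h the mitosis bar reaches 59.1% to the left and that of the fork and nucleotide genes 3.03%.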

How the data were processed

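RNA of 8 samples was hybridised to 1 Affymetrix Mouse Expression Array 430A each. The authors deposited linear probe set intensities; their trimmed means are equal on all arrays, and the software that made them is not given in the sources used here. Values were transformed to log2(signal + 21.9), the 20th percentile of all signals, from the deposited intensities. The dimmest probe sets, below the 40th percentile of mean log2 signal, were not tested, which kept 13576. All 4 times were fitted in 1 model with limma 3.58.1 (eBayes with a variance trend) in R 4.3.3, and p-values, computed here and not by the authors, were adjusted by the Benjamini-Hochberg method over all tested probe sets of a comparison. The fit was tested on simulated data.

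Probe sets were named from the platform annotation: 20380 had 1 gene symbol, 691 several and 1555 none. Every member on the array is named, with up to 4 called genes of each other list by size of change, plus Cdkn1a, Mki67 and E2f1. Members and lists were chosen with earlier results of these data known. The samples' replicate numbers were not taken as pairs, since the labels give numbers only. Deviations of same-numbered samples correlated with r between 0.05 and 0.18 over 6 pairs of times, above 0.1 in 2. With a replicate block in the fit 10 members rose from 6 to 12 h (7 without it), and 26 passed the F-test (23 without it). Alternatives varied the offset, filter, normalization, samples in the fit, block, variance trend, probe set choice and arrays.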

Additional observations from a re-analysis of the deposited data

Results flagged for a closer look

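For 7 of 33 genes the change from 0 h differed between 12 h and 6 h by limma's test of the difference. This is the comparison of 6 and 12 h given above, in which 4.93% of all tested genes were higher. Only the call of Tk1 held under all 18 alternatives, and 1 was left with only those times in the fit. The difference, 12 h minus 6 h on the log2 scale, was 0.61 for Rfc2 (adjusted p = 0.00738), 0.47 for Pole (adjusted p = 0.0342) and 0.43 for Rpa1 (adjusted p = 0.0165). It was 0.54 for Lig1 (adjusted p = 0.0265), 0.43 for Rrm1 (adjusted p = 0.0259), 0.52 for Rrm2 (adjusted p = 0.00957) and 0.84 for Tk1 (adjusted p = 0.00167). For Rrm2 the change from 0 h also differed between 24 h and 12 h, by -0.39 (limma, adjusted p = 0.0327). That call held under 9 of 18 alternatives.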

How the results depend on the processing

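Of 864 recomputed values of the 48 calls against 0 h, 740 kept the call, 124 lost it and 0 changed direction. Leaving out an array of a time not compared, or the variance trend, does not alter the change itself. In such settings the direction could not differ. With no filter, 3 genes were higher from 6 to 12 h and 0 lower from 12 to 24 h. With a filter at the 60th percentile, 1 was higher and 2 lower from 12 to 24 h. With arrays centred on their median, 11 were higher at 12 h, 5 lower at 24 h, and 2 lower from 12 to 24 h. With only the groups compared in the fit, 5 were lower at 24 h, 1 higher from 6 to 12 h, and 2 higher and 2 lower from 12 to 24 h. Without a variance trend, 1 was lower at 12 h, 3 higher from 6 to 12 h and 0 lower from 12 to 24 h. With the replicate block, 1 was higher from 12 to 24 h, 10 from 6 to 12 h and 17 at 12 h. With the median over all tested probe sets of a gene, Rfc1 was at -0.0801 and Dut at 0.51 at 6 h, both of opposite sign to the brightest probe set. Leaving out 1 array at a time gave 2 to 7 higher and 3 to 6 lower at 6 h, 10 to 18 higher and 1 to 3 lower at 12 h, and 8 to 16 higher and 1 to 5 lower at 24 h. From 6 to 12 h it gave 1 to 10 higher and 0 to 1 lower, from 12 to 24 h 0 to 2 higher and 0 to 4 lower, and in the F-test over all times 15 to 28. The causes were not tested. With 2 arrays a time, their number limits the precision.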

Other observations

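One probe set is annotated to both Tyms and its pseudogene Tyms-ps and was kept out of the counts. It read 2264 and 2391 units at 0 h, 2747 and 1889.6 at 6 h, 2579 and 2487 at 12 h, and 2113 and 1938 at 24 h. Its log2 change from 0 h was -0.03 ± 0.15 at 6 h, 0.12 ± 0.15 at 12 h and -0.20 ± 0.15 at 24 h, none called by limma. The F-test over the 4 times gave an adjusted p of 0.321 in limma.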
